A study of Mus musculus with 8 samples.

Results

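The glycolysis and glucose transport genes described here were 35 genes that encode the glucose and lactate carriers, every enzyme step from hexokinase to lactate dehydrogenase, the bifunctional enzymes that set fructose-2,6-bisphosphate, and the E1 subunits of pyruvate dehydrogenase with its kinases. They were chosen by gene symbol among the 16390 genes that have a named probe on the array, and each gene was represented by its brightest probe. All 35 had a value on all 8 arrays, and Aldoa was the only member with 2 probes. The study followed mouse primordial germ cells (PGC) as they were turned into embryonic germ (EG) cells, which are pluripotent stem cell lines derived from germ cells.

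RNA was measured on 8 one-colour arrays in 4 groups of 2, labelled E11.5PGCs, Day3(2i+A83), Day6(2i+A83) and EG(2i+A83), and called here E11.5 PGC, Day3, Day6 and EG. E11.5 PGC were germ cells of the embryonic stage in their name, with no culture day given, Day3 and Day6 were cells at days 3 and 6 of culture, and EG were the cells at the end of the conversion. All 4 groups carried the Nanog-GFP reporter, in which a fluorescent protein reports Nanog, and the series describes cell sorting for candidate pluripotent cells over the culture. The labels of all 8 samples, E11.5 PGC included, give the same medium (15% serum replacement with LIF and bFGF) and the same inhibitors: 1 µM PD325901, which blocks MEK, 3 µM CHIR99021, which blocks GSK3, and 250 nM A83-01, which blocks the Activin and Nodal type I receptors. The labels name neither a strain nor a sex, and do not say whether EG replicates came from separate lines or the other replicates from separate litters or cultures, so p-values measure the spread between these samples, which may be technical. In samples of many cells, fewer cells of a type and less RNA per cell cannot be told apart.

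Glycolysis turns glucose into pyruvate in the cytosol. Glucose enters through facilitative carriers, hexokinase traps it as glucose-6-phosphate, phosphofructokinase commits it to breakdown, and a trunk of shared enzymes makes ATP and pyruvate. Pyruvate is then either reduced to lactate by lactate dehydrogenase and exported, or oxidised in mitochondria by pyruvate dehydrogenase, which the pyruvate dehydrogenase kinases switch off. Naive pluripotent stem cells are known to use both glycolysis and oxidation, and many glycolytic genes are known targets of the hypoxia-inducible factors and of Myc.

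The arrays carried 23473 probes, of which 21126 to 22404 had a value on an array, and their median intensities lay between 19.99 and 20.008, so they had been scaled alike. The array names fall into a pair of series. Series A held 5 arrays, the pair from EG and every replicate 1 of the other groups, and series B held the 3 replicate 2 arrays of those groups. Changes are log2 differences of group means (with SE) in limma, tested over all probes with a value on both arrays of both groups, and a gene is said to rise or fall where the Benjamini-Hochberg adjusted p was under 0.05. A second fit adds the array series as a block, and its values stand beside those of the first. The labels were checked against markers. The 10 pluripotency markers summed to 17340 and 15220 in E11.5 PGC and 24400 and 19300 on Day3. On Day6 they summed to 29720 and 36610, and in EG to 40610 and 47830. Dppa5a made up much of these sums (14000 and 11810 in E11.5 PGC, 26510 and 28410 in EG). In EG 5 of the 10 rose (5.57% of all probes), while Tfcp2l1 went from 16.1 and 24.0 to 9.63 and 10.4. The 10 germ cell markers summed to 18280 and 11050 in E11.5 PGC and 8725 and 7398 on Day3. Their sums were 1557 and 4207 on Day6 and 2416 and 1959 in EG. Dppa3 made up 10540 and 5303 of the E11.5 PGC sums. In EG 6 of the 10 fell (5.61% of all probes), while Mael went from 653 and 314 to 455 and 493. The 10 gonadal somatic markers summed to 40.5 to 72.7 on every array, with 4 of the 10 near the floor (under 4.55) or missing on all. The 10 fibroblast or feeder markers summed to 110 and 159.5 in E11.5 PGC and to 309 and 456.5 on Day3. Of these, 1 rose on Day3 against E11.5 PGC, where 1.33% of all probes did. Their median log2 difference was 0.8, against -0.13 over all probes. The sum was 2688 on Day6 replicate 1, 160 on Day6 replicate 2, and 1057 and 370 in EG. On Day6 replicate 1 this sum came mainly from S100a4 (1335), Thy1 (747) and Acta2 (198). Col1a2 (129), Col3a1 (101), Dcn (68.2) and Col1a1 (43.6) were also higher there than on Day6 replicate 2 (19.9, 24.1, 18.9 and 9.89). Pdgfrb was not (41.9 and 44.2). The part of these cells in the results was not tested. Endothelial markers summed to 105 to 506, with the 2 highest sums in E11.5 PGC, and the 5 blood markers with a probe summed to 110 to 602, with the 2 highest in EG; 3 of the 8 listed blood markers had no named probe.

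The glycolytic genes did not all move together during the 6 days of culture. The carrier Slc2a3 and the kinase Hk2 rose within 3 days and were still high on Day6, Pdha1 rose and Bpgm fell by Day6, and no other member passed the test in culture without the series block. Slc2a1, Slc16a3 and Eno2 joined the rises in EG. Over the 35 members the median log2 difference was -0.13 for Day3 against E11.5 PGC, 0.20 for Day6 against Day3, 0.63 for EG against Day6, -0.24 for Day6 against E11.5 PGC and 0.67 for EG against E11.5 PGC. Over all probes tested the medians were -0.13, -0.05, -0.01, -0.16 and -0.16. With the series block the EG medians of the members were 0.37 against Day6 and 0.52 against E11.5 PGC. Those of all probes were then -0.02 and -0.18. Within series A the members had medians of 0.41 and 0.55. EG was the group with the highest mean for 21 of the 35 members (60%), against 25.3% of the 19524 probes with a value on all arrays; E11.5 PGC was highest for 10 (28.6%, against 42.7% of probes), Day3 for 2 (5.71% against 14.2%) and Day6 for 2 (5.71% against 17.9%). Day3 was the lowest group for 12 members (34.3%, against 17.8% of probes), and Day6 for 10 (28.6%, near the 26.9% of probes). Both EG arrays are of series A, so any gap between the series enters this ranking of group means. The members were chosen with earlier results of these data known, so these shares describe the members and are not an independent test.

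**Figure D1:**
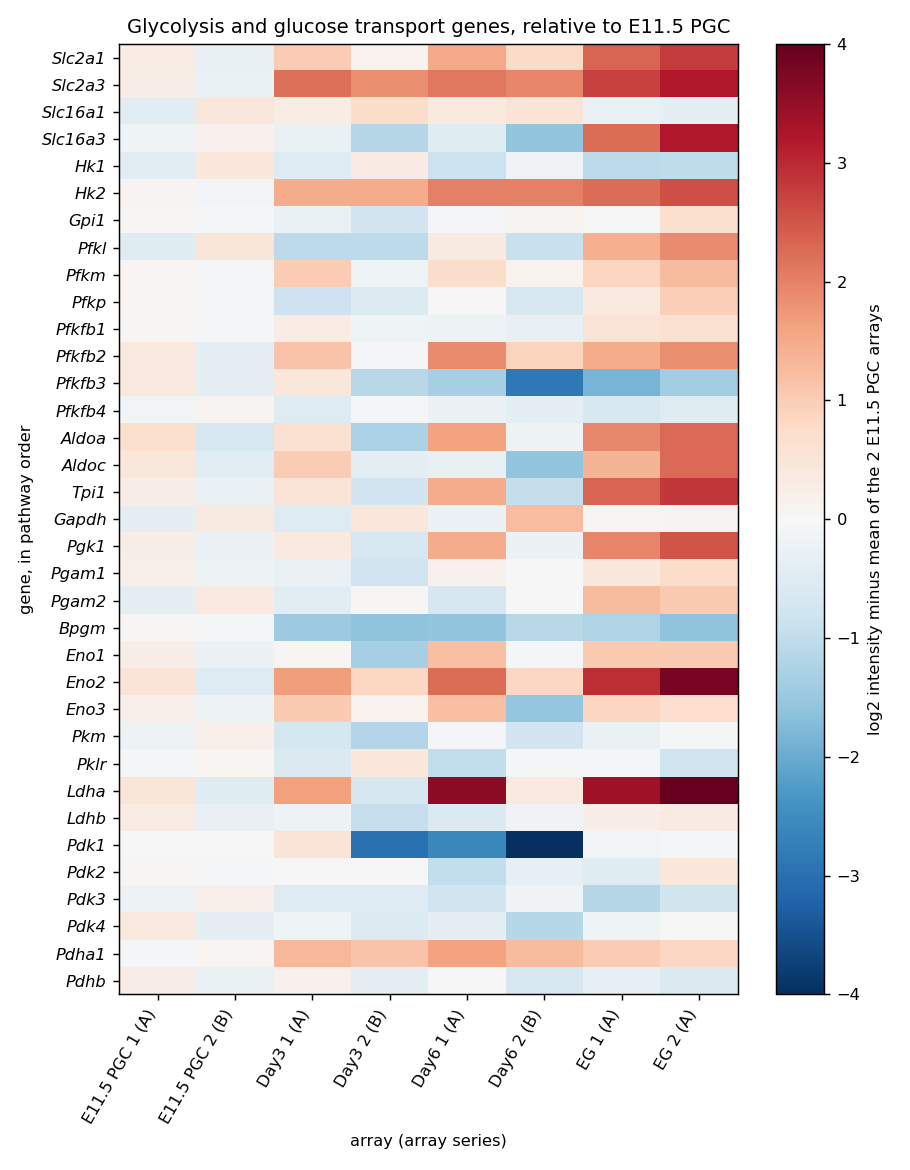
Log2 intensity of each of the 35 genes (vertical axis, in pathway order) on each of the 8 arrays (horizontal axis, with the array series in brackets), minus the mean of the 2 E11.5 PGC arrays; red is higher and blue lower, and the colour scale ends at 4 in either direction. Slc2a3 and Hk2 are red from Day3 on, Bpgm is blue from Day3 on, Slc16a3 turns red in EG, and Ldha, Tpi1 and Pgk1 are red on the Day6 array of series A and pale or blue on that of series B.

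EG against E11.5 PGC, both ends of the conversion, gave the most calls. Slc2a1, Slc2a3, Slc16a3, Hk2 and Eno2 rose and Bpgm fell, which is 5 members called higher, where 5.57% of all probes were, and 1 called lower, where 5.61% were (11.2% in either direction). With the array series as a block 13 members rose (background 9.24%) and 2 fell (background 14.4%; 23.6% in either direction): Pfkfb2, Aldoa, Aldoc, Tpi1, Pgk1, Pgam2, Ldha and Pdha1 joined the genes that rose, and Pfkfb3 joined Bpgm. The arrays of EG and E11.5 PGC did not overlap for 20 members that were higher in EG (24.3% of all probes) and 7 that were lower (39.9%). The count of 6 members called without the block became 1 without EG replicate 2, 2 without EG replicate 1 or either E11.5 PGC array, and 10 without either Day6 array. The blocked count of 15 became 5 without E11.5 PGC replicate 1 and 6 without EG replicate 2.

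Over the first 3 days, Slc2a3 and Hk2 rose and no member fell (2 called higher, background 1.33%; the background was 0.754% for lower calls and 2.08% for either direction). With the series block Pdha1 rose (log2 1.25 ± 0.21 SE, adjusted p = 0.0227 with limma) and Bpgm fell (-1.54 ± 0.25, adjusted p = 0.0197), against backgrounds of 4.34% higher, 4% lower and 8.34% in either direction. Leaving out any array of E11.5 PGC or Day3 ended both of these blocked calls. The unblocked count of 2 became 0 without any array of E11.5 PGC, Day3 or EG. Without an overlap of arrays, 4 members were higher on Day3 (background 15.8%) and 8 lower (background 25.3%). The whole culture period, Day6 against E11.5 PGC, gave 3 rises, of Slc2a3, Hk2 and Pdha1 (background 4.34%), and a fall of Bpgm (background 4.28%; 8.61% in either direction). With the series block 7 members rose (background 9.5%) and 4 fell (background 14.3%; 23.8% in either direction), the additions being Slc2a1, Pfkfb2, Eno2 and Ldha among the rises and Pfkfb3, Pdk1 and Pdk4 among the falls. Members with no overlap of arrays numbered 7 higher (background 18.6%) and 8 lower (background 31%). The count of 4 became 0 without E11.5 PGC replicate 2, 1 without Day6 replicate 1, and 2 without E11.5 PGC replicate 1 or either EG array, and the blocked count of 11 became 5 without replicate 1 of E11.5 PGC or of Day6 and 7 without E11.5 PGC replicate 2.

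No member passed between Day3 and Day6, and limma called 0 of 20015 probes there (background 0%), with 1783 probes and 1 member at an unadjusted p under 0.05. The series block left Pfkfb3 as the only member called, a fall, where 0.829% of all probes were called lower, 0.974% higher and 1.8% in either direction. Non-overlapping members numbered 4 higher (13.7% of all probes) and 3 lower (16.9%). From Day6 to EG no member passed either, where 0.169% of all probes were called (0.139% higher and 0.0298% lower), with 2618 of 20103 probes and 12 of 35 members at an unadjusted p under 0.05. With the series block Slc16a3, Aldoc and Pgam2 rose (3 members, background 1.25%; 0.716% of probes were called lower and 1.96% in either direction). EG arrays did not overlap Day6 arrays for 18 members that were higher (background 23.4%) and 4 that were lower (background 22.8%). Day3, Day6 and EG were all set against the same 2 E11.5 PGC arrays, so those comparisons share their controls and their values are given side by side only.

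An F test over the 4 groups called 5 members, Slc2a1 (adjusted p = 0.042), Slc2a3 (0.0104), Slc16a3 (0.0182), Hk2 (0.0102) and Bpgm (0.0458), where limma called 8.03% of all probes; it called 0 without either E11.5 PGC array or EG replicate 2, 2 without EG replicate 1, and 8 and 9 without Day6 replicates 1 and 2. With the series block the F test called 16 members (background 24.6%). Among them were Pfkl (adjusted p = 0.0464) and Eno1 (0.05 after rounding, at the threshold), which passed in no comparison of 2 groups. In all, 7 members were called in at least 1 comparison without the block (14.7% of the probes tested in all 5 comparisons were) and 17 with it (background 34.1%), and 18 were called in none by either fit. The plot of changes shows both fits side by side.

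**Figure D2:**
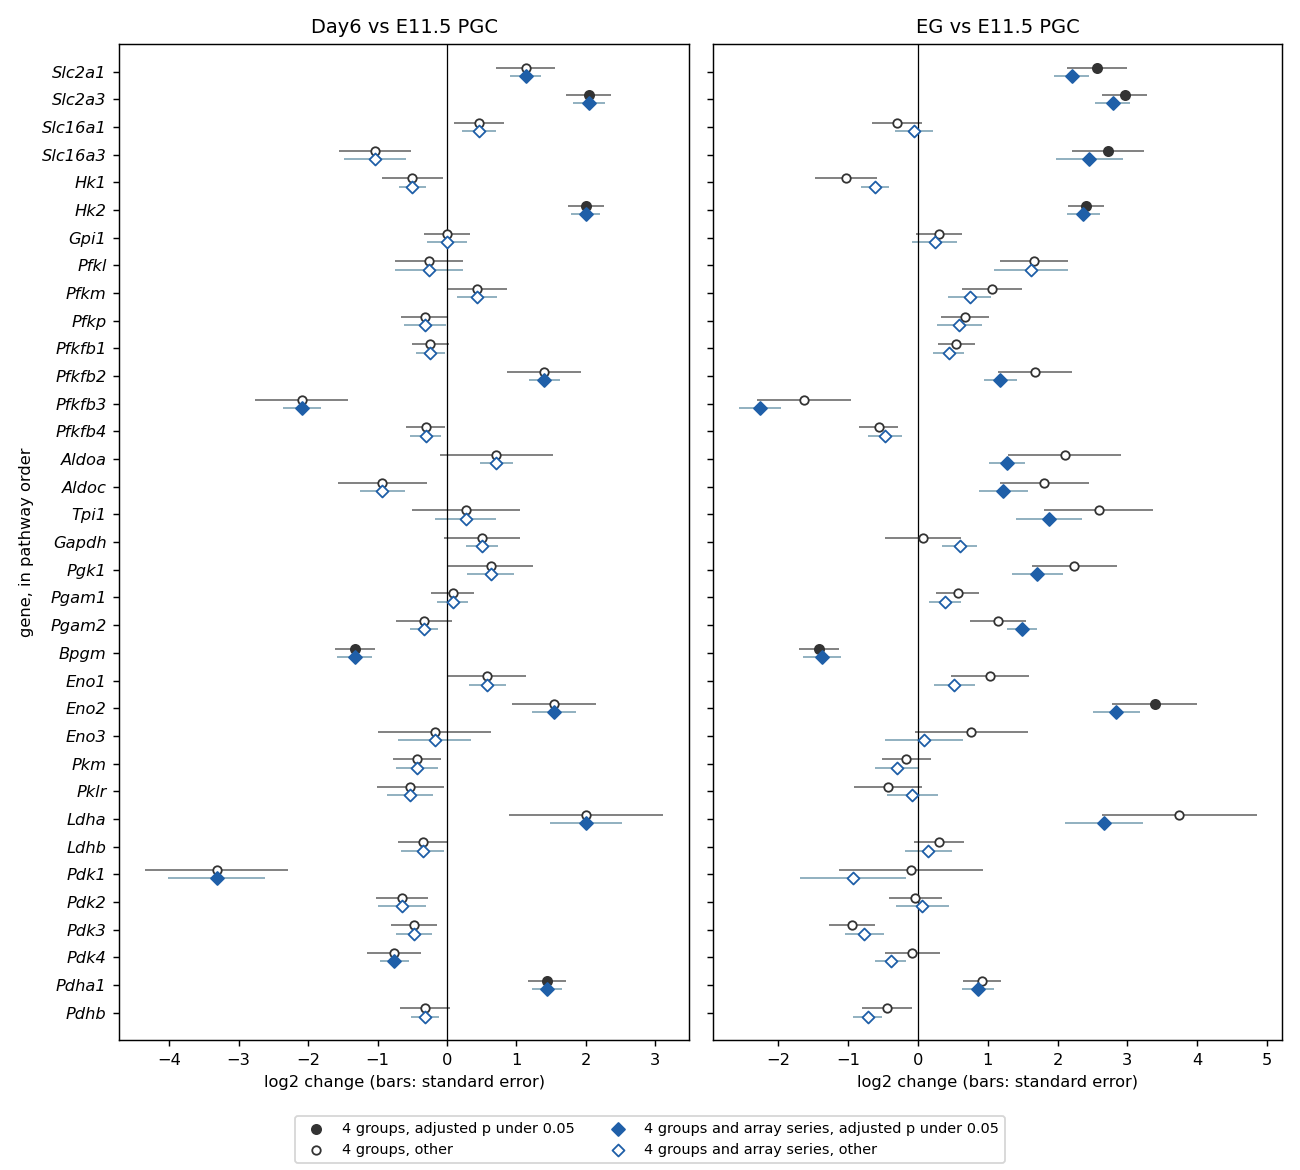
Log2 change of each gene (vertical axis) for Day6 (left) and EG (right) against E11.5 PGC on the horizontal axis, with bars of 1 standard error; circles are the fit on 4 groups, diamonds the fit that also has the array series, and filled symbols passed an adjusted p of 0.05. Slc2a3 and Hk2 are filled in both panels and both fits, and Ldha, Tpi1, Pgk1 and Aldoa are far to the right in EG with wide bars in the first fit.

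Promoter sequence was looked at for the members that rose in EG with or without the block, because genes of this pathway are known targets of the hypoxia-inducible factors, whose core element holds the letters ACGTG, and of Myc-type factors, whose E-box is CACGTG. RefSeq promoter windows (build GRCm38.p6, 250 bases before to 50 after a start) were found for 34 of the 35 members, in 54 windows. ACGTG, on either strand, was present in 22 of the 54 member windows (40.7%) and in 6447 of all 32851 windows (19.6%). GCGTG was present in 51.9% of member windows and 32.4% of all, and CACGTG, which holds ACGTG on both strands, in 11.1% and 7.15%. Member windows also held more CpG, with a median of 16.5 a window against 7 over all windows. The stretches around the upstream ACGTG matches of 7 of the 13 genes that rose in EG are shown, each 5′ to 3′ on the gene's strand, with every ACGTG, or CACGT where it lies on the other strand, in capitals.
Slc2a1: gtcccgccccggACGTGctccccaggccc
Slc16a3: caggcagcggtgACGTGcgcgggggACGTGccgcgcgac
Hk2: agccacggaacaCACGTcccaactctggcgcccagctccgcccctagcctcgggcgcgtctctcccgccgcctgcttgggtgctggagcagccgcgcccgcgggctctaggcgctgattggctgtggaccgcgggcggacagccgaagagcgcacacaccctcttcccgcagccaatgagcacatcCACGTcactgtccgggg
Pfkfb2: ggccaagcgcccCACGTGactcgccccaac
Aldoa: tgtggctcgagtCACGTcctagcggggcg
Pgk1: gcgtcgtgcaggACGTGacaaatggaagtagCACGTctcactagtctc
Ldha: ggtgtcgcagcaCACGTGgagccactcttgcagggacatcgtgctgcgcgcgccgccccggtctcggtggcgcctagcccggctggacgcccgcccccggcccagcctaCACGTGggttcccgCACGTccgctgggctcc
These lie at chr4:119108697-119108725 (+ strand), chr11:120949028-120949066 (+), chr6:82774490-82774692 (-), chr1:130715826-130715855 (-), chr7:126799364-126799392 (-), chrX:106186938-106186985 (+) and chr7:46845647-46845786 (+), all upstream of the annotated starts. Ldha had 5 matches over both strands and a pair of CACGTG runs, and Hk2, Slc16a3 and Pgk1 had 2 matches each. Pfkfb2 also had 2, the strands of 1 CACGTG, and Slc2a1 and Aldoa had 1 each. Of the other genes that rose, Tpi1, Pgam2, Eno2 and Pdha1 had no ACGTG in any window, and Aldoc had no match wholly upstream. GCGTG was in the 1 window of Pdha1 and in the 2 of Aldoc, and in none of Tpi1, Pgam2 and Eno2. Slc2a3 had no window. Windows of genes that did not rise held the letters too. A single such match lay upstream of each of Pkm, Pgam1, Pdk3 and Pdhb. Slc16a1, Pfkm and Pdk2 each had an upstream CACGTG. Pfkfb3, which was lower in EG, had a CACGTG at chr2:11502126-11502155.
Pfkfb3: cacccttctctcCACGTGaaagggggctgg
A match is a run of letters in a window, and binding was not measured.

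Of the glucose carriers, Slc2a3 (GLUT3, the high-affinity carrier of neurons and early embryos) moved first. Its probe read 574 and 401 in E11.5 PGC, 2195 and 1735 on Day3, 2090 and 1853 on Day6, and 3174 and 4384 in EG (replicates 1 and 2). Both arrays of every later group lay above both E11.5 PGC arrays, and Day3 and Day6 overlapped. Relative to E11.5 PGC the log2 change was 2.02 ± 0.32 (SE, adjusted p = 0.0287) on Day3, 2.04 ± 0.32 (0.0115) on Day6 and 2.96 ± 0.32 (0.00361) in EG by limma, and 2.79 ± 0.25 (0.002) in EG with the series block. The EG call held in all 8 fits that left out an array, and the Day3 call in 2 of the 8, those without a Day6 array. Within series A the Day6 change was 1.86, and within series B it was 2.21.

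Slc2a1 (GLUT1, the broadly expressed carrier) passed later. It read 225 and 150.5 in E11.5 PGC, 376 and 204 on Day3, 520 and 312 on Day6, and 922 and 1276 in EG. Replicate 1 was above replicate 2 in each of the first 3 groups, neighbouring groups overlapped up to Day6, and both EG arrays stood above all others. The rise in EG was 2.56 ± 0.43 (adjusted p = 0.0143 with limma) and 2.20 ± 0.25 (0.00347) with the series block. On Day6 it was 1.13 ± 0.43 (0.166), and 1.13 ± 0.23 (0.017) with the block, with 1.21 within series A and 1.05 within series B; the blocked Day6 call was lost without any array of E11.5 PGC or Day6. Without the block, leaving out either E11.5 PGC array or either EG array ended the EG call (adjusted p up to 0.128).

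The monocarboxylate carriers, which move lactate and pyruvate with a proton, differed in EG. Slc16a3 (MCT4, known for lactate export from glycolytic cells) read 115 and 148 in E11.5 PGC, 109 and 58.8 on Day3, 92.7 and 43.6 on Day6, and 618 and 1200 in EG. Every culture array was below both E11.5 PGC arrays, and both EG arrays stood above all others. EG exceeded E11.5 PGC by 2.72 ± 0.52 (adjusted p = 0.0202 with limma; 2.45 ± 0.48 and 0.0156 with the block), and leaving out any array of either group ended the unblocked call, while the blocked call held in 6 of 8 such fits and was lost without E11.5 PGC replicate 1 or EG replicate 2. Against Day6 the difference was 3.76 ± 0.52 (0.0607), and with the block 3.49 ± 0.48 (0.032), lost without any array of Day3, Day6 or EG. Slc16a1 (MCT1, the widespread carrier) spanned 129 to 295 over all arrays and passed in no comparison; its group means were 179, 253, 246 and 145 from E11.5 PGC to EG.

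Hexokinase phosphorylates glucose, and its isozymes Hk1 and Hk2 differ in that Hk2 is the inducible form of growing and insulin-responsive cells. Hk2 read 223 and 193 in E11.5 PGC, 586 and 585 on Day3, 831 and 832 on Day6, and 968 and 1254 in EG. No pair of groups overlapped, so the order E11.5 PGC, Day3, Day6, EG held on all arrays, although neither of the later steps passed the test (0.51 ± 0.26, adjusted p = 0.692, and 0.41 ± 0.26, 0.593, with limma). The rise over E11.5 PGC was 1.5 ± 0.26 (0.0418) on Day3, 2.00 ± 0.26 (0.00657) on Day6 and 2.41 ± 0.26 (0.00385) in EG. The Day6 call was lost without E11.5 PGC replicate 2 (0.0552), the EG call without EG replicate 2 (0.0553), and the Day3 call in every fit without an array of E11.5 PGC, Day3 or EG. With the block the Day6 and EG calls held in all 8. Hk1 lay between 17.1 and 47.6, passed in no comparison, and was lowest in EG, with a log2 difference from E11.5 PGC of -1.03 ± 0.44 (0.189). Gpi1, the isomerase that makes fructose-6-phosphate, lay between 467 and 1229 and passed in none.

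**Figure D3:**
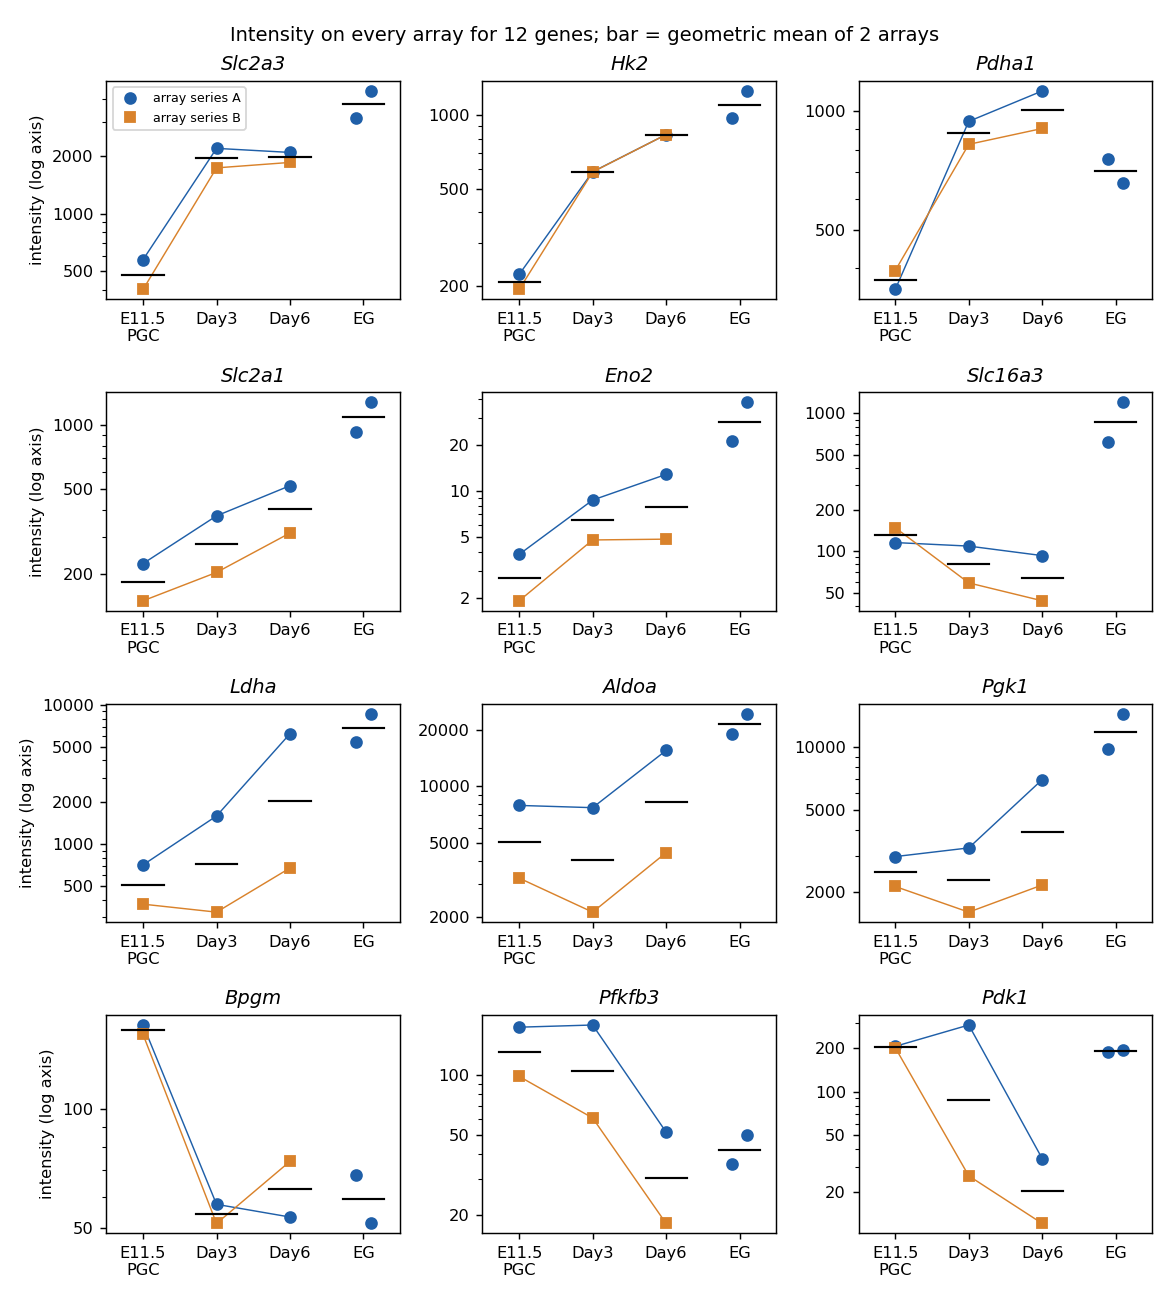
Array intensity (vertical axes, log scale) of 12 genes in the 4 groups (horizontal axes); circles are series A arrays, squares series B arrays, lines join the arrays of a series up to Day6, and black bars are geometric means of 2 arrays. The series nearly coincide for Hk2 and Bpgm, run in parallel for Slc2a1 and Eno2, and part on Day6 for Ldha (6229 and 677) and Pgk1 (6979 and 2171).

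Phosphofructokinase, the committed step, is encoded by Pfkl, Pfkm and Pfkp, the liver, muscle and platelet subunits. Pfkl read 32.3 and 62.7 in E11.5 PGC, 21.6 and 21.9 on Day3, 58.0 and 24.5 on Day6, and 122 and 167 in EG. Both EG arrays were above all others, both Day3 arrays were below all others, and E11.5 PGC and Day6 overlapped. Its EG difference from E11.5 PGC was 1.66 ± 0.49 (adjusted p = 0.0763 with limma) and it passed only the F test with the block (0.0464). Pfkm lay between 83.1 and 224 and Pfkp between 314 and 1085; for both, the EG arrays were higher than those of E11.5 PGC and Day6 without overlap, and neither passed in any comparison.

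The PFKFB enzymes make and break fructose-2,6-bisphosphate, the activator of phosphofructokinase, and their genes moved in different directions. Pfkfb3, the form with the highest kinase activity, read 173 and 98.1 in E11.5 PGC, 177 and 60.8 on Day3, 51.7 and 18.1 on Day6, and 35.7 and 49.8 in EG. Series A was above series B throughout culture, and Day6 and EG lay below E11.5 PGC on every array. Without the block no difference passed (Day6 against E11.5 PGC -2.09 ± 0.67, adjusted p = 0.107 with limma). With it, Pfkfb3 fell by 1.76 ± 0.28 between Day3 and Day6 (0.0403), by 2.09 ± 0.28 over the whole culture (0.0043) and by 2.27 ± 0.30 from E11.5 PGC to EG (0.00519), and the last pair of calls held in all 8 blocked fits without an array. The Day3 to Day6 difference was -1.78 within series A, -1.75 within series B, and its call was lost without any array of Day3, Day6 or EG.

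Pfkfb2, the heart form, read 17.3 and 9.97 in E11.5 PGC, 29.0 and 12.8 on Day3, 48.8 and 24.5 on Day6, and 36.9 and 47.8 in EG. Day6 and EG arrays were above both E11.5 PGC arrays. With the block it rose by 1.40 ± 0.22 on Day6 (adjusted p = 0.00763 with limma) and 1.18 ± 0.24 in EG (0.0174); without it the adjusted p was 0.16 and 0.0888. Leaving out E11.5 PGC replicate 1 ended both blocked calls, and leaving out EG replicate 2 ended that of EG. Pfkfb1 lay between 59.4 and 109, and Pfkfb4 between 3.3 and 5.57, close to the floor of 4.55; neither passed.

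Several trunk enzymes from aldolase to enolase were split by array series, among them Aldoa, Aldoc, Tpi1 and Pgk1, while the gap between replicates was at most 0.53 (log2) for Bpgm and Pgam1. Aldoa, the main aldolase of most tissues, read 7903 and 3229 in E11.5 PGC, 7687 and 2124 on Day3, 15550 and 4418 on Day6, and 19060 and 24460 in EG. Every series A array was above its series B partner, and the EG arrays, both of series A, were above all. Its second probe read 602 and 515 in E11.5 PGC, 591 and 329 on Day3, 892 and 602 on Day6, and 1479 and 1990 in EG. There too series A was above series B up to Day6 and EG was highest. The gap between the series was narrower on that probe than on the brightest one. The difference between EG and E11.5 PGC was 2.10 ± 0.81 (adjusted p = 0.148 with limma), 1.27 ± 0.26 (0.018) with the block, and 1.45 within series A. The blocked call was lost without E11.5 PGC replicate 1 or EG replicate 2.

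Aldoc, the brain form, had its lowest mean on Day6 and its highest in EG. It read 221 and 120 in E11.5 PGC, 326 and 124 on Day3, 133 and 54.9 on Day6, and 421 and 775 in EG. With the block it rose by 2.15 ± 0.35 from Day6 to EG (adjusted p = 0.0453 with limma) and by 1.22 ± 0.35 from E11.5 PGC to EG (0.049), calls of which the first was lost whichever array was left out and the second held only without EG replicate 1; without the block neither passed (0.151 and 0.123).

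Tpi1, which interconverts the triose phosphates, read 604 and 415 in E11.5 PGC, 711 and 295 on Day3, 1395 and 262 on Day6, and 2535 and 3582 in EG. Its Day6 change had opposite signs in the array series, 1.21 in A and -0.67 in B. EG exceeded E11.5 PGC by 2.59 ± 0.78 (adjusted p = 0.0805 with limma), and by 1.88 ± 0.47 (0.0323) with the block. Pgk1, the first ATP-making step, read 2974 and 2135 in E11.5 PGC, 3274 and 1607 on Day3, 6979 and 2171 on Day6, and 9750 and 14490 in EG. Here too only the EG arrays were above all others, by 2.24 ± 0.61 over E11.5 PGC (0.0584), and by 1.71 ± 0.37 (0.0201) with the block. The blocked calls of both were lost without E11.5 PGC replicate 1, either Day3 array or EG replicate 2, and that of Tpi1 also without EG replicate 1.

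Gapdh, which is often used as a reference gene, passed in no comparison. Its only probe read 60.4 to 204, and series B exceeded series A in each of the first 3 groups. These readings lie far below those of Pgk1 and Pgam1, but intensities of different probes are not compared as levels. How well the probe reports Gapdh RNA was not tested. Pgam1, the common phosphoglycerate mutase, lay between 3511 and 10170 and passed in none. Pgam2, the muscle form, read 22.8 and 39.8 in E11.5 PGC, 21.9 and 31.1 on Day3, 18.8 and 30.7 on Day6, and 72.8 and 61.6 in EG. Both EG arrays were above the rest, and with the block Pgam2 rose by 1.81 ± 0.22 from Day6 (adjusted p = 0.0246 with limma) and by 1.49 ± 0.22 from E11.5 PGC (0.00706); without it the adjusted p was 0.195 and 0.115. The blocked call against Day6 was lost without any array of Day3, Day6 or EG, and that against E11.5 PGC without E11.5 PGC replicate 1.

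Bpgm, which makes 2,3-bisphosphoglycerate and is known from red cells, was the only member that fell without the series block. Its probe read 163 and 154 in E11.5 PGC, 57.5 and 51.5 on Day3, 53.4 and 73.8 on Day6, and 68.0 and 51.7 in EG. Both E11.5 PGC arrays were above all 6 others, which overlapped among themselves. Bpgm was lower by -1.54 ± 0.29 on Day3 (adjusted p = 0.051 with limma), fell by 1.33 ± 0.29 by Day6 (0.036) and by 1.42 ± 0.29 in EG (0.0262). The Day6 call held only without Day6 replicate 2, and the EG call was lost without any array of E11.5 PGC or EG. Of the 5 blood markers with a probe, Laptm5 and Cd68 rose and Tyrobp fell in EG, and the median log2 difference of the 5 was -0.18. The red cell marker Alas2 read 23.7 and 22.5 in E11.5 PGC and 21.5 and 19.5 in EG, and Tyrobp, a marker of myeloid cells, read 43.3 and 34.6 in E11.5 PGC and 11.2 and 10.4 in EG. Their part in the Bpgm values was not tested.

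The enolases differed. Eno1, the ubiquitous form, read 4578 and 3300 in E11.5 PGC, 4104 and 1565 on Day3, 8900 and 3780 on Day6, and 7965 and 7957 in EG, and passed no comparison of 2 groups. Eno2, the neuronal form, was near the floor in E11.5 PGC, at 3.83 and 1.91, and read 8.69 and 4.76 on Day3, 12.8 and 4.82 on Day6, and 21.1 and 37.8 in EG. Every later array was above both E11.5 PGC arrays. It rose by 3.39 ± 0.61 in EG (adjusted p = 0.0171 with limma), and by 2.84 ± 0.34 (0.00402) with the block, and by 1.54 ± 0.32 on Day6 (0.0171) with the block; these sizes rest on values near the floor, and leaving out an array of either group ended the unblocked call, and leaving out either E11.5 PGC array or Day6 replicate 1 ended the blocked Day6 call. Eno3, the muscle form, lay between 12.1 and 81.4 and passed in none.

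Pyruvate kinase makes pyruvate and ATP. Pkm, the form of most tissues and of stem cells, lay between 665 and 1746 and passed in no comparison. Its group means were 1511, 785, 1121 and 1340 from E11.5 PGC to EG, so it was among the 10 members that were highest in E11.5 PGC. The annotation names the gene only, not its M1 or M2 splice form. Pklr, the liver and red cell form, lay between 1.75 and 4.70, near the floor on every array except Day3 replicate 2 (4.70), and passed in none.

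Ldha encodes the dehydrogenase subunit that favours lactate formation, and its arrays differed by series. It read 712 and 372 in E11.5 PGC, 1598 and 326 on Day3, 6229 and 677 on Day6, and 5427 and 8669 in EG. On Day6 the series A array read between the 2 EG arrays, and the series B array was 677, the highest of that series. The gap between replicates 1 and 2 was 0.94 in E11.5 PGC, 2.29 on Day3 and 3.20 on Day6, the widest of any member on Day6, and was -0.68 in EG; a block assumes a constant gap. EG exceeded E11.5 PGC by 3.74 ± 1.11 (adjusted p = 0.076 with limma) and by 3.27 within series A, and the block gave a rise of 2.66 ± 0.56 (0.019), lost without E11.5 PGC replicate 1 or either EG array. For Day6 the block gave a rise of 2.00 ± 0.52 (0.0363), made of 3.13 (series A) and 0.86 (series B); the blocked call was lost without E11.5 PGC replicate 1 (1.09), Day6 replicate 1 or any array of Day3 or EG. Day6 replicate 1 is also the array with the high fibroblast marker sum (2688, against 160 on replicate 2). Its germ cell marker sum was the lower of the pair (1557, against 4207). In EG, replicate 1 had the higher fibroblast marker sum (1057, against 370) and the lower Ldha reading. The part of such cells in the Ldha values was not tested. Ldhb, the subunit of oxidative tissues, lay between 1056 and 2513 and passed in none.

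**Figure D4:**
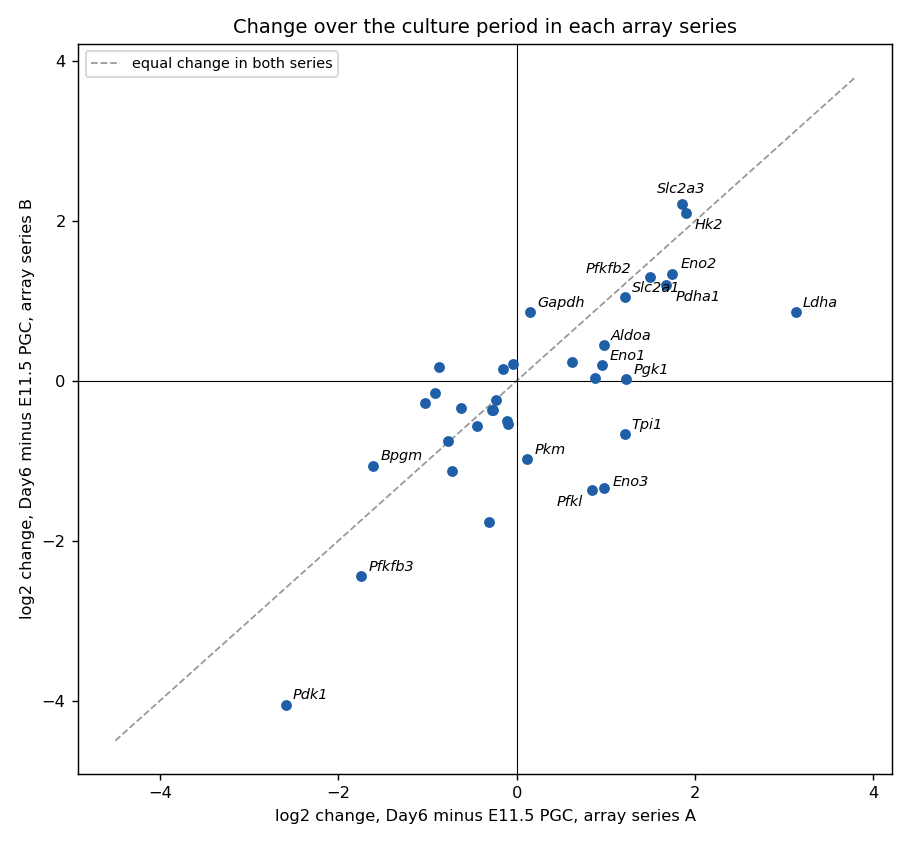
Log2 change from E11.5 PGC to Day6 in array series A (horizontal axis) and series B (vertical axis), 1 point per gene, with a dashed line of equal change. Slc2a3, Hk2, Slc2a1, Pfkfb2, Eno2 and Pdha1 lie near the line, while Ldha (3.13 and 0.86), Tpi1 (1.21 and -0.67), Pfkl (0.85 and -1.36) and Eno3 (0.98 and -1.34) lie well below it.

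The same split ran through several trunk members over the culture. From E11.5 PGC to Day6, 17 of 35 members had a higher Day6 value within series A and 16 within series B, with medians of -0.04 and -0.24. The median absolute gap between the 2 arrays of a group was 0.48 for the members in E11.5 PGC, 0.71 on Day3, 0.73 on Day6 and 0.37 in EG, against 0.4, 0.48, 0.5 and 0.22 over all probes. The median gap of the members was thus the wider of the pair in every group, a difference that was not tested. Series and replicate number are the same split in the first 3 groups, and both EG arrays are of series A.

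At the mitochondrial gate, Pdha1, the catalytic E1 alpha subunit of pyruvate dehydrogenase, rose early. It read 352 and 393 in E11.5 PGC, 944 and 825 on Day3, 1128 and 905 on Day6, and 758 and 656 in EG. All 6 later arrays were above both E11.5 PGC arrays, and the EG arrays were below those of Day3 and Day6. It rose by 1.44 ± 0.27 on Day6 (adjusted p = 0.0208 with limma), while the Day3 difference of 1.25 ± 0.27 (0.0736) and the EG difference of 0.92 ± 0.27 (0.072) passed only with the block (0.0227 and 0.0404). The Day6 call was lost without either E11.5 PGC array, Day6 replicate 1 or either EG array, and held in all 8 such fits with the block. Its partner subunit Pdhb lay between 1012 and 1879 and passed in none, with an EG difference of -0.44 ± 0.36 (0.483), and -0.72 ± 0.21 (0.0536) with the block.

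Of the pyruvate dehydrogenase kinases, which shut the gate, Pdk1 had the widest differences. It read 206 and 201.5 in E11.5 PGC, 289 and 26.1 on Day3, 34.3 and 12.2 on Day6, and 188 and 193 in EG. It was low on Day6 in both series and back near the E11.5 PGC level in EG, and the 2 Day3 arrays differed by 3.47 on the log2 scale, the widest replicate gap of any member on Day3. The Day6 difference was -3.32 ± 1.03 (adjusted p = 0.0997 with limma), and with the block it fell by 3.32 ± 0.70 (0.019), made of -2.59 (series A) and -4.05 (series B). That blocked call was lost without E11.5 PGC replicate 2 or either Day6 array. From Day6 to EG it was higher by 3.22 ± 1.03 (0.252), without overlap of arrays.

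Pdk4, the kinase known from fasting, read 30.6 and 18.0 in E11.5 PGC, 20.8 and 16.0 on Day3, 17.9 and 10.7 on Day6, and 21.0 and 23.5 in EG. With the block it fell by 0.76 ± 0.21 on Day6 (adjusted p = 0.0417 with limma), a call that held in 0 of 8 blocked fits without an array. Pdk2 lay between 4.0 and 10.6 and Pdk3 between 194 and 492; Pdk3 was highest in E11.5 PGC, and neither passed.

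Within-array differences between isozyme genes show where members of the same step changed unequally; the difference between 2 probes has no meaning as a level, and only its movement between arrays was used. With 2 arrays against 2, the exact permutation test cannot go below p = 0.333, so no such difference could pass. Hk2 minus Hk1 moved from a mean of 2.55 in E11.5 PGC to 4.15 on Day3, 5.06 on Day6 and 5.99 in EG, higher in EG than in E11.5 PGC on all arrays (two-sided exact p = 0.333). Slc16a3 minus Slc16a1 went from -0.45 to -1.66, -1.95 and 2.57, and all EG arrays were above all others. Ldha minus Ldhb went from -1.96 to -0.90, 0.39 and 1.48, but the Day6 arrays stood at 2.20 (series A) and -1.42 (series B). Slc2a3 minus Slc2a1 was 1.38, then 2.82, 2.29 and 1.78, so it was widest on Day3. Pdk4 minus Pdk1 went from -3.12 to -0.56 on Day6 and was -3.10 in EG. Pfkp minus Pfkl was lowest in EG (3.64, 4.0, 3.58 and 2.65), Eno2 minus Eno1 went from -10.49 to -8.62, -9.53 and -8.14, and Aldoc minus Aldoa was lowest on Day6 (-4.95, -4.33, -6.60 and -5.24).

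**Figure D5:**
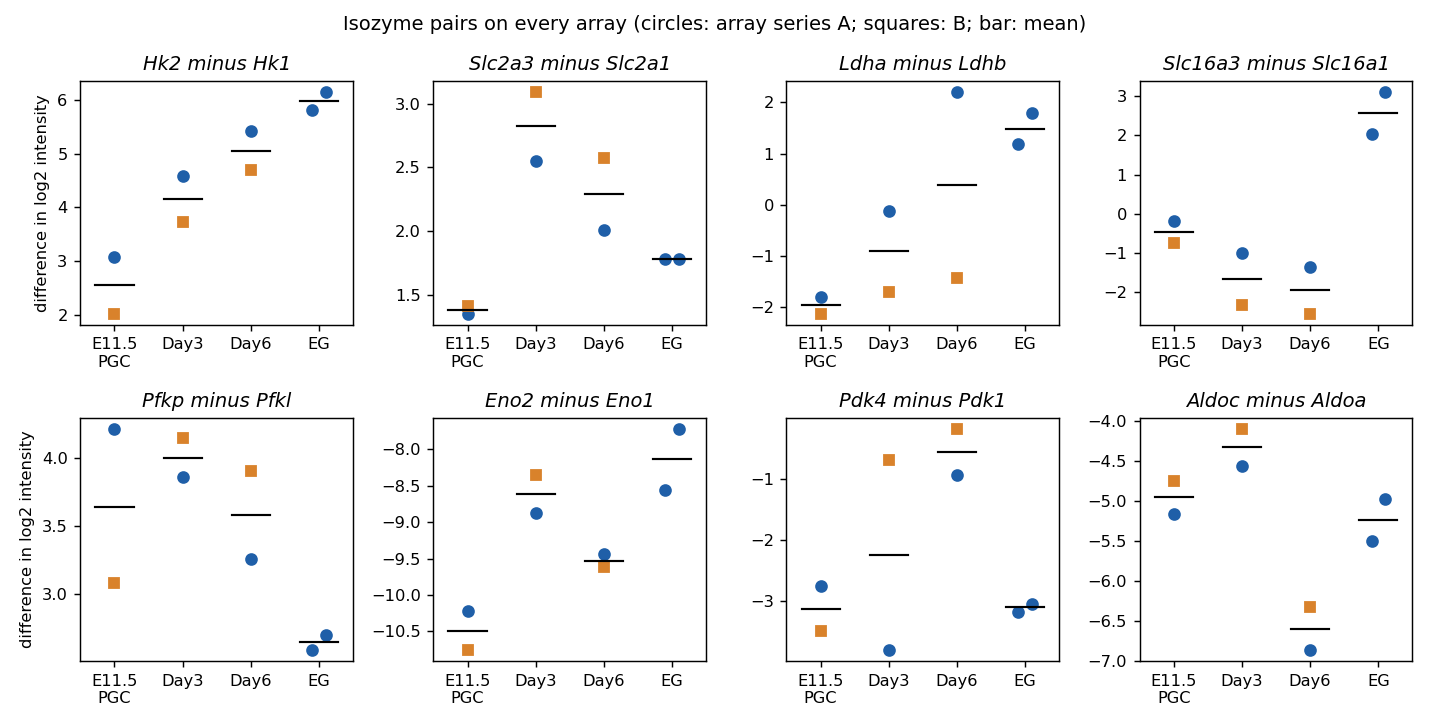
Difference in log2 intensity between 2 genes of the same step (vertical axes) on each array of the 4 groups (horizontal axes), for 8 gene pairs; circles are series A, squares series B and bars means. Hk2 minus Hk1 goes from 2.55 to 5.99, Slc16a3 minus Slc16a1 is high only in the 2 EG arrays, and the Day6 arrays of Ldha minus Ldhb stand at 2.20 and -1.42.

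Genes around the pathway were taken from lists of its branches and regulators, and the counts given are those of limma without the block over the genes tested. They are read against the share of all probes called in EG against E11.5 PGC, 5.57% higher and 5.61% lower, and on Day6 against E11.5 PGC, 4.34% higher and 4.28% lower. Of 13 other transport genes, 0 passed in EG against E11.5 PGC, where limma called 11.2% of probes and 5669 of 20761 had an unadjusted p under 0.05, and with the block 1 rose (background 9.24%). Txnip, which promotes removal of glucose carriers from the cell surface, read 513 and 731 in E11.5 PGC, 459 and 489 on Day3, 174 and 166 on Day6, and 823 and 879 in EG. It fell by 1.85 ± 0.28 by Day6 (adjusted p = 0.01) and rose by 2.32 ± 0.28 from Day6 to EG (0.04), with no overlap of arrays in either. The sodium-driven carrier Slc5a1 rose by 1.72 on Day6. Bsg, the chaperone of the monocarboxylate carriers, passed in none. Among 13 other isozymes and regulators, Gpd2 of the glycerol phosphate shuttle rose by 1.31 and the testis form Ldhc fell by 2.69 ± 0.43 in EG (0.0123), from 67.3 and 81.4 to 15.3 and 8.57.

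Branch enzymes gave both rises and falls. In the pentose phosphate list 2 of 11 rose and 2 fell in EG. The phosphoribosyl pyrophosphate synthetase gene Prps1 read 54.1 and 78.4 in E11.5 PGC, 249 and 665 on Day3, 1396 and 3402 on Day6, and 536 and 1500 in EG, a rise of 5.06 ± 0.70 by Day6 (adjusted p = 0.00737 with limma) and 3.78 ± 0.70 in EG (0.0184). Prps2 rose by 3.07 in EG, and Rpia fell by 1.77 and Tktl2 by 3.34. Tktl2 read 1.96 and 4.5 in EG, near the floor. In the gluconeogenesis list 2 of 6 rose, Fbp2, the muscle fructose bisphosphatase (from 11.05 and 11.46 to 78.3 and 184, by 3.42 ± 0.41, 0.00518), and Pck2 (2.41), and Pcx fell by 1.90. Of the 14 glycogen and hexosamine genes, Gfpt2 rose by 3.13 ± 0.30 (0.00263) and Gys1 by 1.48, while Gfpt1, which encodes the other form of the same hexosamine enzyme, fell by 1.54 ± 0.26 (0.0134).

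Of 9 other genes of pyruvate entry, 0 rose and 2 fell in EG: Pdp1, a phosphatase that switches pyruvate dehydrogenase back on, fell by 2.29 ± 0.30 (adjusted p = 0.00678 with limma; 78.6 and 95.9 in E11.5 PGC, 19.5 and 16.0 in EG), and its regulator Pdpr by 2.26 ± 0.38 (0.0186), from 7.52 and 9.97 to 1.64 and 2.00, near the floor. In the tricarboxylic acid list 2 of 22 rose in EG, Idh2 (1.68) and Me1 (2.29), and Me2 fell by 1.53; Idh1 rose by 2.26 ± 0.30 on Day6 (0.00642) and read 109 and 131 in EG, against 395 and 546 on Day6.

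Hypoxia factor genes and their targets outside glycolysis gave 3 rises of 22 in EG, against 5.57% of all probes, and no fall without the block (4 rises and 2 falls with it, against 9.24% and 14.4%, P4ha1 joining the rises and Egln2 and Egln3 the falls): Bhlhe40 (4.14 ± 0.71, adjusted p = 0.015 with limma), Ndrg1 (3.29 ± 0.47, 0.00809) and Vegfa (1.70 ± 0.31, 0.0181). In E11.5 PGC Ndrg1 read 3.49 and 4.08, near the floor, and Bhlhe40 read 7.73 and 5.13, so these sizes rest on low values. Hif1a itself read 131 and 200.5 in E11.5 PGC and 101 and 79.0 in EG and passed in none. Egln3, a prolyl hydroxylase induced by these factors, fell by 3.08 ± 0.50 on Day6 (0.0126) and read 35.8 and 55.0 in EG. Of 17 regulators of glycolytic genes, 1 rose in EG, Hnf4a (1.58), and 1 fell, Mycl (by 2.02). Hnf4a read 2.6 and 2.36 in E11.5 PGC, near the floor. Foxo1 (by 2.62), Mlxip (by 1.37) and Prkaa1 (by 1.39) fell on Day6, and Myc and Mycn passed in none without the block. With the block the EG counts were 3 rises and 2 falls in the pentose phosphate list, 3 and 1 in gluconeogenesis, 0 and 4 in pyruvate entry, 3 and 3 in the tricarboxylic acid list, and 2 and 3 among the regulators, where 9.24% of all probes were called higher and 14.4% lower.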

How the data were processed

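Total RNA of 4 groups of 2 samples was labelled with Cy5 and hybridised to one-colour TORAY arrays, per the labels' protocols. The deposited values are linear intensities, 1 per probe and array, without a value for some probes; their array medians lie at 19.99 to 20.008, and the normalization behind this is not given in the sources used here. Of 23473 probes, 16631 had 1 gene symbol in the platform annotation, 0 several and 6842 none.

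Intensities were taken to log2 and fitted with limma 3.58.1 (R 4.3.3) on all 8 arrays with the 4 groups; 5 comparisons were tested, two-sided, with Benjamini-Hochberg adjustment over all probes with a value on both arrays of both groups, and an F test over the 19524 probes with values on all arrays. No pseudocount or filter on low values was applied; near the floor means under 4.55. The fit without the block was tested on simulated data with planted changes. Those data had independent noise on each array and no series effect, so the test does not bear on the series split. Alternatives were quantile normalization, centring, a pseudocount of 2.27, leaving out the dimmest 25% of probes, the array series or the replicate number as a block, a trended robust variance, fits of 4 arrays, and leaving out each array. The number of arrays, 2 in a group, limits the precision.

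Replicate 1 and 2 share a number in all groups. Over 19524 probes the deviations of replicate 1 correlated at 0.62, 0.547 and 0.694 between E11.5 PGC, Day3 and Day6, and at -0.025, 0.005 and 0.061 between these and EG, so the number does not pair EG with the rest.

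Members called in any comparison by either fit, or by the F test, are given on every array, and the others by range. A listed gene around the pathway is named where it passed, with up to 4 more per comparison. The members and lists were chosen with earlier results of these data known.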

Additional observations from a re-analysis of the deposited data

How the results depend on the processing

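Of the settings tried on 34 single member changes, 461 values kept direction and call, 68 newly passed, 49 no longer passed and 0 reversed. Most of the 34 were not called without the block, and a change that stayed uncalled counts among the 461. Only changes called without the block could lose a call, so all 49 losses come from these. They were 2 on Day3, 4 on Day6 and 6 in EG, each against E11.5 PGC. The counts of members called moved more. Day3 against E11.5 PGC gave 2, and gave 4 with the pseudocount, without dim probes, with the array series block, with the replicate block and with the trended variance, and 0 from its 4 arrays alone. Day6 against Day3 gave 0, and 1 with the series block; that blocked count became 0 with quantile normalization and 3 with the pseudocount or the trended variance. EG against Day6 gave 0, 1 with the pseudocount, without dim probes, with the replicate block or with the trended variance, and 3 with the series block. Day6 against E11.5 PGC gave 4, 11 with the series block and 1 from its 4 arrays alone. EG against E11.5 PGC gave 6, 15 with the series block, 13 with the replicate block and 14 from its 4 arrays alone. The F test gave 5, 3 after centring, 8 with the pseudocount, the replicate block or the trended variance, and 16 with the series block.

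Leaving out each array gave 0 to 3 members for Day3 against E11.5 PGC (0 to 4 with the series block), 0 to 1 with the block for Day6 against Day3, 0 to 2 with the block for EG against Day6, 0 to 4 for Day6 against E11.5 PGC (5 to 9), 1 to 10 for EG against E11.5 PGC (5 to 15) and 0 to 9 for the F test (9 to 16). With an EG or E11.5 PGC array left out, the lone array is assumed to vary like the other groups.

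Over all probes the series block took the calls from 431 to 1725, 0 to 361, 34 to 395, 1734 to 4790 and 2321 to 4905 in the order Day3 against E11.5 PGC, Day6 against Day3, EG against Day6, and Day6 and EG against E11.5 PGC. Of the blocked EG calls against E11.5 PGC, 39.1% were higher, and 52.1% after quantile normalization, which moved the median of all probes from -0.18 to -0.06. Values near the floor, as for Eno2, Pfkfb4 and Pklr, have little signal over background. The cause of the moved counts was not tested.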
